A study of Caenorhabditis elegans with 5 samples.

Results

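Nematodes (Caenorhabditis elegans) exposed to a mix of benzene, toluene and formaldehyde (BTF mix) were set against nematodes exposed to formaldehyde alone, on 1 Affymetrix array each. The 2 arrays were chosen by their titles from the 5 of the series, and the difference between them, mix minus formaldehyde, was taken for 10271 genes. By the labels the cultures differed in the addition of benzene and toluene, so the comparison asks what adding these solvents to formaldehyde went with. The unexposed control, benzene and toluene arrays do not enter the difference and are given beside it. All 5 groups were wildtype hermaphrodites, used as young adults of 3 days from an age-synchronised culture. The mix, formaldehyde, benzene and toluene groups were each exposed for 24 h at 20 °C in a salt medium with no food, and the control group was not exposed. No label used here states the concentrations, or whether formaldehyde was at the same concentration alone and in the mix. RNA came from whole animals, so fewer cells of a type and less RNA per cell cannot be told apart.

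Foreign compounds are handled in animals by several kinds of protein in sequence. Cytochrome P450s (cyp genes) and flavin monooxygenases (fmo genes) oxidise them, UDP-glucuronosyltransferases (ugt genes) and glutathione S-transferases (gst genes) attach a sugar or glutathione, and ABC transporters such as the P-glycoproteins (pgp genes) pump the products out of cells. In C. elegans much of this takes place in the intestine, several of the cyp genes are known to be induced by foreign compounds, and nuclear hormone receptors (nhr genes) are known regulators of such genes. In mammals, benzene and toluene are oxidised by cytochrome P450s, whereas formaldehyde is removed mainly by a glutathione-dependent dehydrogenase.

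Values were probe set intensities on a linear scale, with a median of 82.3 on the mix array and 82.9 on the formaldehyde array. Differences are on the scale of log2(intensity + 16), which understates those of dim genes. Each gene is given by its brightest probe set over the 5 arrays, and the level filter kept the 10271 of 17118 genes whose mean log2 level reached 6.05, the 40th percentile. There was 1 array per group, so no test, error or p-value could be had, "higher" and "lower" describe these 2 arrays, and the number of arrays limits the precision. Of all probe sets, 2622 (11.6%) held the same value on both arrays. Poly-A spikes, foreign transcripts of the labelling kit, were on average 0.75 higher in the mix than after formaldehyde over 24 probe sets (0.53 to 1.21). The hybridization spikes were 0.12 higher. Scaling the arrays on the poly-A spikes moved the median difference of all genes from 0.00 to -0.69, and scaling on the hybridization spikes moved it to -0.10, so each difference below is read against the bulk of the genes on its array. The ratio of 3' to 5' signal, a sign of RNA quality, was higher in the mix for all 4 control transcripts: on the log2 scale it was 1.72 after formaldehyde and 1.95 in the mix for actin, 1.46 and 1.76 for GAPDH, 5.11 and 5.14 for ubiquitin, and 4.10 and 4.45 for catalase. The part of spikes and RNA quality in the differences was not tested.

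The mix array differed from the formaldehyde array in few genes, and the genes furthest apart encode enzymes of foreign compound metabolism. At 2-fold, 4 of 10271 genes (0.0389%) were higher in the mix and 0 were lower. These were the cytochrome P450 genes cyp-14A3, cyp-14A2 and cyp-34A10 and the UDP-glucuronosyltransferase gene ugt-63. Of these, cyp-14A3 and ugt-63 passed the level filter only through their value in the mix: with the filter on the other 4 arrays, chosen after values were seen, 2 genes were 2-fold higher and 14 were 1.5-fold higher. At 1.5-fold (0.585 on the log2 scale), 16 genes (0.156%) were higher and 1 (0.00974%) was lower. Of the 16, 5 were cytochrome P450s, 4 were UDP-glucuronosyltransferases, 1 was a flavin monooxygenase and 1 a P-glycoprotein. The quartiles of the genes past the level filter were -0.06 and 0.07, 95% lay between -0.25 and 0.24, and the median absolute difference was 0.06. With the hybridization spikes as scale, 10 genes were 1.5-fold higher and 12 lower, and with the poly-A spikes 4 were higher and 8189 lower.

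**Figure D1:**
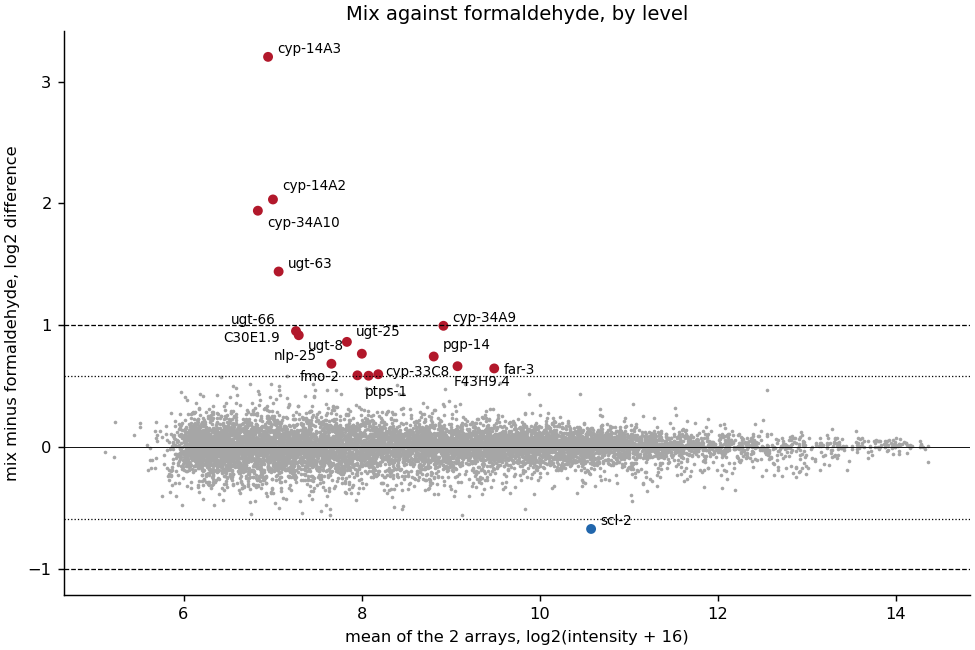
Difference between mix and formaldehyde (log2, vertical axis) against the mean level of the 2 arrays (log2 of intensity + 16, horizontal axis), with 1 point for each of 10271 genes. Dashed lines mark 2-fold and dotted lines 1.5-fold. The 16 genes 1.5-fold higher in the mix (red, named) lie at low and middle levels and reach 3.20, while scl-2 (blue) is the 1 gene 1.5-fold lower.

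The cyp-14A genes carried the largest differences. cyp-14A3 had an intensity of 39.8 in control, 53.9 with benzene, 60.2 with toluene, 24.7 with formaldehyde and 359 in the mix. It was lowest after formaldehyde and highest in the mix. The difference was 3.20, or 9.20-fold, and it ran from 2.25 with a pseudocount of 64 to 3.81 with a pseudocount of 1, since the formaldehyde value is dim. cyp-14A2 had 67.4 in control, 77.6 with benzene, 74.4 with toluene, 47.5 with formaldehyde and 244 in the mix, a difference of 2.03 (4.09-fold). It followed the same order, with formaldehyde lowest and the mix highest. Both genes were picked for a large difference between these arrays, which favours such an order. cyp-14A1 was 0.43 higher, with 55.5 after formaldehyde and 80.4 in the mix.

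The other cyp-14A genes differed little. cyp-14A5 stood at 172 after formaldehyde and 171 in the mix (-0.01), and cyp-14A4 at 27.8 and 35.3 (0.23), below the level filter. Of the 5 measured members, 2 were 2-fold higher. cyp-14A1, cyp-14A2 and cyp-14A3 follow one another in the order of protein-coding genes of the RefSeq annotation (WBcel235), and cyp-14A4 is 2 genes beyond cyp-14A3. The probe sets of the first 4 genes carry no mark of binding to several transcripts, and that of cyp-14A5 carries one.

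The cyp-34A genes showed the same contrast between neighbours. cyp-34A10 had 83.4 in control, 89.9 with benzene, 92.1 with toluene, 42.3 with formaldehyde and 208 in the mix, a difference of 1.94 (3.84-fold). It was lowest after formaldehyde and highest in the mix, an order that its choice by this difference favours. cyp-34A9, next to it in gene order and much brighter, had 1218 in control, 1119 with benzene, 1012 with toluene, 327 with formaldehyde and 668 in the mix. Its difference of 1.00 (1.99-fold) lay just below 2-fold, and the mix stayed below control, benzene and toluene. The other 7 measured members lay between -0.19 (cyp-34A2) and 0.15 (cyp-34A3), and 4 of them were below the level filter, cyp-34A1, cyp-34A5, cyp-34A6 and cyp-34A7. cyp-34A8, the neighbour of cyp-34A9 on the other side, had 141 after formaldehyde and 131 in the mix (-0.10).

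Among the remaining P450 groups, 1 gene reached 1.5-fold. This was cyp-33C8, with 280 in control, 226 with benzene, 169 with toluene, 221 with formaldehyde and 343 in the mix (0.60). cyp-33A1 followed at 0.39, with 98.7 after formaldehyde and 135 in the mix. The 10 cyp-33 genes past the filter had a median of 0.02, and the 4 cyp-13 genes of 0.01. The cyp-35 genes, which respond to many foreign compounds, had a median of 2.42 over control after formaldehyde and 2.55 in the mix. Members differed in this: cyp-35B1 was below control, with 99.4 there, 32 after formaldehyde and 39.2 in the mix. cyp-35B2 was slightly above, with 51.3, 72.2 and 84.7. Between the 2 arrays the cyp-35 genes differed little, although all 7 past the filter were on the higher side, from 0.04 to 0.20 with a median of 0.13. cyp-35A4, for example, had 663 after formaldehyde and 745 in the mix, and cyp-35C1 had 5477 and 6010. Over all 73 cytochrome P450 genes on the array, 44 passed the filter, of which 5 (11.4%) were 1.5-fold higher, 0 were 1.5-fold lower and 29 were higher by any amount. For all genes these shares were 0.156%, 0.00974% and 49.6%. With the filter on the 4 arrays other than the mix, cyp-14A3 drops out and 4 of 44 (9.09%) were 1.5-fold higher, so the share is in part set by the filter.

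Among the flavin monooxygenases, fmo-2 had 54.6 in control, 173 with benzene, 178 with toluene, 186 with formaldehyde and 288 in the mix. Its level after formaldehyde was close to that after benzene and toluene, and the mix lay 0.59 above formaldehyde. fmo-5 (0.18), fmo-4 (0.16) and fmo-1 (0.15) were also on the higher side, within 1.5-fold, but the second probe sets of fmo-4 (-0.09) and fmo-1 (-0.09) were on the lower side. Dehydrogenases differed less. The 16 alcohol and aldehyde dehydrogenases past the filter had a median of 0.00, with 8 higher and 8 lower, and 0 reached 1.5-fold. Among all genes 0.156% were 1.5-fold higher and 0.00974% lower, so a count of 0 in a short list is near that share. sodh-2, an alcohol dehydrogenase gene, had 46.6 after formaldehyde and 68.6 in the mix (0.43), and alh-5, an aldehyde dehydrogenase gene, had 171 and 218 (0.33). adh-5, the counterpart of the mammalian glutathione-dependent formaldehyde dehydrogenase, was looked up after values were seen and had 377 in control, 409 after formaldehyde and 442 in the mix (0.11). The 25 short-chain dehydrogenases had a median of 0.02, with 0 past 1.5-fold.

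**Figure D2:**
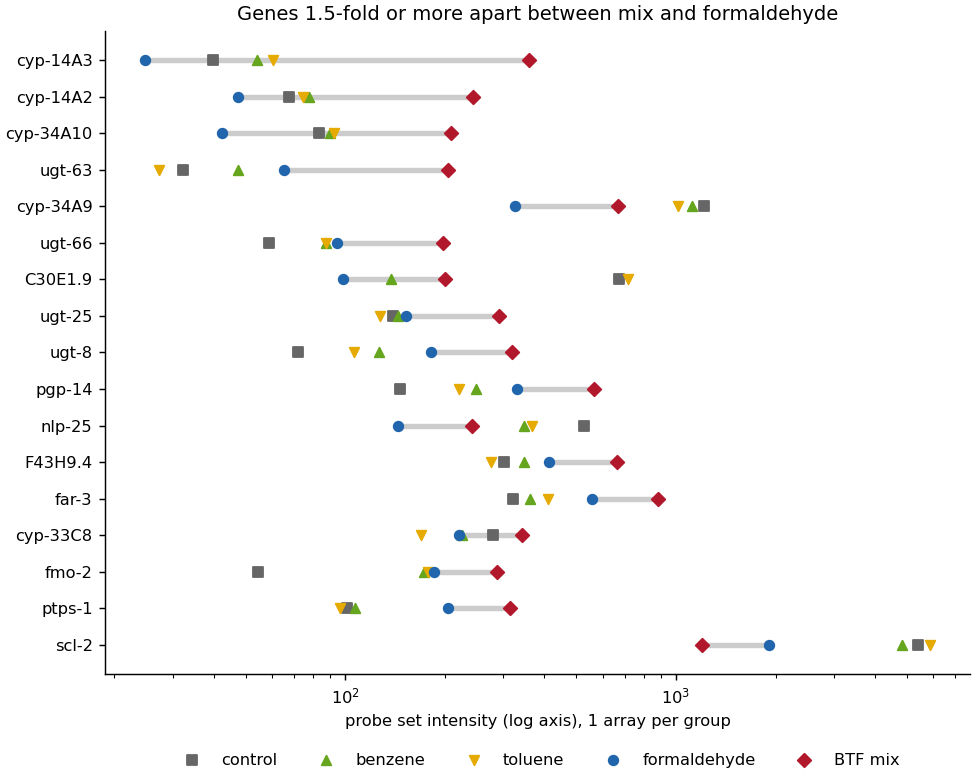
Probe set intensity (horizontal log axis) on each of the 5 arrays for the 17 genes at least 1.5-fold apart between mix and formaldehyde, ordered by difference, with 1 symbol for each array and a grey bar from formaldehyde to mix. For 13 of the 16 genes higher in the mix, the mix is the highest of all 5 arrays. The genes were picked as higher in the mix than after formaldehyde, which favours this count.

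UDP-glucuronosyltransferases made up the second group. ugt-63 had 32.2 in control, 47.2 with benzene, 27.3 with toluene, 65.4 with formaldehyde and 205 in the mix, a difference of 1.44 (2.72-fold). ugt-66 had 58.9, 87.2, 87.3, 94.4 and 198 on the same arrays (0.95, or 1.94-fold). ugt-25 had 139, 144, 127, 153 and 292 (0.86), and ugt-8 had 71.8, 126, 106, 181 and 319 (0.77). The mix was the highest array for all 4 genes, which their choice as higher in the mix favours. They differ after formaldehyde: ugt-25 was close to control there, while ugt-63, ugt-66 and ugt-8 were above it. All 4 probe sets are unmarked.

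Of 64 UDP-glucuronosyltransferase genes on the array, 43 passed the filter, of which 4 (9.3%) were 1.5-fold higher and 0 were 1.5-fold lower. With the filter on the 4 arrays other than the mix, ugt-63 drops out and 3 of 42 (7.14%) were 1.5-fold higher. By any amount, 29 (67.4%) lay above 0 and 14 below, and the median was 0.09. For all genes the shares were 0.156% for 1.5-fold higher, 0.00974% for 1.5-fold lower and 49.6% for higher by any amount. Next below the 4 genes were ugt-13 (469 after formaldehyde and 605 in the mix, 0.36), ugt-9 (0.34) and ugt-14 (0.31). On the other side were ugt-1 (210 and 160, -0.36), ugt-54 (66.7 and 50.7, -0.31) and ugt-2 (-0.21). ugt-22, with 186 in control, had 1525 after formaldehyde and 1680 in the mix (0.14). The glutathione S-transferases, the other conjugating family, had a median of 0.00 over 28 genes, with 14 higher and 14 lower. Their count past 1.5-fold was 0, near the share of all genes. gst-28 (-0.35), gst-5 (0.24), gsto-1 (0.23) and gst-26 (0.23) were furthest from 0.

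Among the ABC transporters, pgp-14, a P-glycoprotein gene, had 146 in control, 248 with benzene, 220 with toluene, 331 with formaldehyde and 565 in the mix (0.74, or 1.67-fold). Its second probe set gave 0.54, in the same direction and below 1.5-fold. pgp-1 had 26.7, 59.2, 27.5, 89.3 and 135 (0.52). For both genes the mix was the highest array, which their choice by this difference favours, and formaldehyde came next. The 38 transporters past the filter had a median of 0.01, with 20 higher (52.6%) and 14 lower (36.8%), against 49.6% and 43.6% of all genes. Of 112 nuclear hormone receptor genes past the filter, 0 reached 1.5-fold. This is near the share of all genes, of which 0.156% were 1.5-fold higher and 0.00974% lower. nhr-237 was nearest, with 53.1, 51.5, 54.7, 54.4 and 88.7 on the control, benzene, toluene, formaldehyde and mix arrays (0.57), and nhr-3 had 455 after formaldehyde and 578 in the mix (0.34), on a probe set that can bind several transcripts, while its second probe set gave -0.00. nhr-237 and cest-12, a carboxylesterase gene (101 and 160, 0.58), lay just outside 1.5-fold, and ptps-1 (0.59) just inside.

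**Figure D3:**
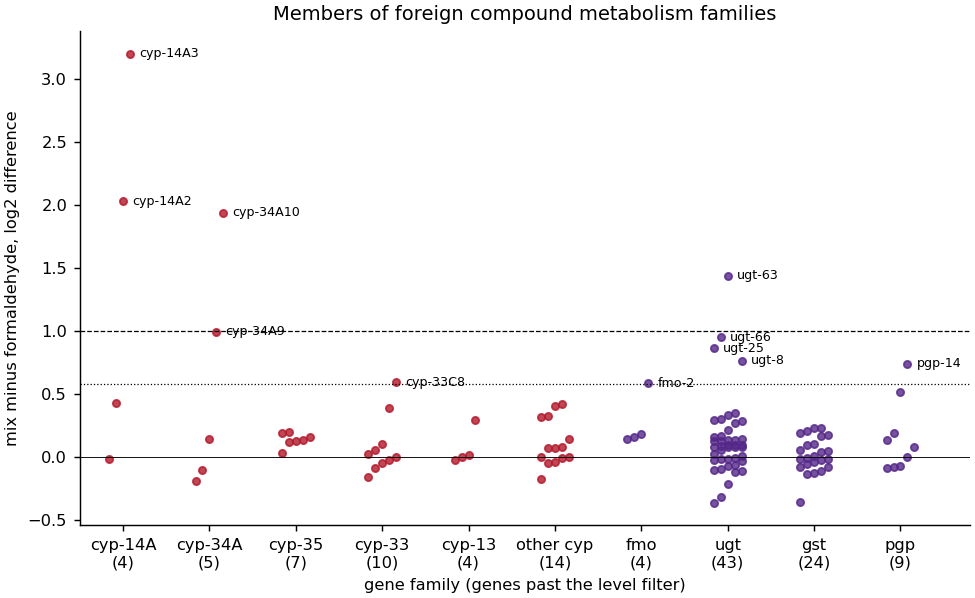
Difference between mix and formaldehyde (log2, vertical axis) for each gene past the level filter in 10 families of foreign compound metabolism, with the number of genes in brackets. The dashed line marks 2-fold and the dotted line 1.5-fold. The 11 named genes lie above 1.5-fold, while most members of each family other than cyp-14A lie near 0.

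The other 5 genes 1.5-fold higher in the mix belong to none of these families. C30E1.9 had 674 in control, 137 with benzene, 717 with toluene, 98.1 with formaldehyde and 200 in the mix (0.92). It was low after formaldehyde and benzene, and the mix value stayed below control. nlp-25, a neuropeptide-like protein gene, had 527, 347, 367, 144 and 241 (0.68) and also stayed below control. far-3, a fatty acid and retinol binding protein gene, had 321, 362, 409, 558 and 883 (0.65). F43H9.4 had 302, 346, 275, 413 and 664 (0.66), and ptps-1, a gene of tetrahydrobiopterin synthesis, had 101, 107, 96.1, 205 and 315 (0.59). In these 3 genes formaldehyde was above control and the mix higher still.

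Set against control, the 16 genes came to the difference from different sides. After formaldehyde, 6 of them were at least 1.5-fold above control, 4 at least 1.5-fold below and 6 within 1.5-fold. Because the formaldehyde array enters both values, these counts are a description and not a separate measurement. Among all genes, 8.67% were 1.5-fold above control after formaldehyde and 6.43% below.

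On the lower side the differences were smaller. scl-2, of a family of secreted cysteine-rich proteins, had 5413 in control, 4834 with benzene, 5878 with toluene, 1911 with formaldehyde and 1195 in the mix (-0.67, formaldehyde over mix 1.59-fold). It was low on both formaldehyde-containing arrays and lowest in the mix. Of the 9 genes of this family past the filter, 7 (77.8%) were on the lower side, against 43.6% of all genes, and 1 on the higher. The median of the family was -0.16. Of the 20 lowest genes, 15 were at least 1.5-fold above control after formaldehyde, against 8.67% of all genes, and 11 rest on probe sets marked as able to bind several transcripts, against 35.5% of all genes. The genes were picked as lowest against formaldehyde, so a high value on that array favours the first count. The sperm-specific gene sss-1 had 37.3, 84.6, 71.4, 226 and 148 on the control, benzene, toluene, formaldehyde and mix arrays (-0.56). R12E2.15 had 662 after formaldehyde and 444 in the mix (-0.56), F36H12.5 115 and 73.3 (-0.55), the prion-like pqn-54 178 and 117 (-0.54), C36H8.1 207 and 139 (-0.52), pqn-74 401 and 277 (-0.51) and the collagen col-63 1074 and 750 (-0.51). In all 7 of these genes formaldehyde was the highest array and the mix the second highest.

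Probe sets of a gene did not always go together. unc-52, which encodes perlecan of the muscle basement membrane, stood at -0.49 on its brightest probe set, which carries such a mark, and at -0.05 and 0.00 on the other 2. lpr-3, a lipocalin-related gene of the apical matrix, stood at -0.47 and at -0.04 on its second probe set.

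Genes of sperm were lower in the mix than after formaldehyde as groups, by small amounts. Major sperm proteins, the cytoskeletal proteins of nematode sperm, had a median of -0.20, and all 23 were lower (-0.29 to -0.10), against 43.6% of all genes. Their summed intensity was 27290 in control, 71768 with benzene, 50903 with toluene, 122698 with formaldehyde and 107768 in the mix. The mix was second to formaldehyde and well above control. msp-64 had 2518 after formaldehyde and 2056 in the mix. All 23 rest on probe sets that can bind several near-identical transcripts, so they are not separate measurements, and the 1 unmarked probe set of the family (msp-32) had 173 after formaldehyde and 210 in the mix, the opposite direction (0.25).

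Other sperm genes gave a like median on probe sets of their own. A second list joined the small sperm-specific families msd, nspd, ssp, ssq and sss with spermatogenesis (spe) genes, which are not a family. Of its 36 genes past the filter, 31 (86.1%) were lower, against 43.6% of all genes, and 5 were higher. The median of the 36 was -0.18, and the 18 on unmarked probe sets had -0.19. nspd-9 had 110 after formaldehyde and 76.3 in the mix (-0.45), sss-2 512 and 389 (-0.38) and spe-18, a spermatogenesis gene, 339 and 258 (-0.37). None of these reached 1.5-fold. Over control, the median of this list was 1.47 after formaldehyde and 1.17 in the mix. Oocyte and eggshell genes did not show the shift, with a median of 0.00 over 34 genes (-0.13 to 0.09), nor did germline markers (0.00 over 37), and the 5 vitellogenin genes had 0.05.

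Cuticle collagens, which build the outer coat of the worm, were also slightly lower in the mix. Of 134 past the filter, 111 (82.8%) were lower, against 43.6% of all genes, and 21 were higher. The collagen median was -0.14 (-0.11 on the 79 unmarked probe sets), with 0 past 1.5-fold. col-63 is given above, dpy-5, a body-shape collagen, had 587 after formaldehyde and 440 in the mix (-0.40), col-81 2372 and 1805 (-0.39) and col-147 5271 and 4130 (-0.35). Over control, their median was 0.68 after formaldehyde and 0.59 in the mix. For moulting and apical matrix genes the median was -0.06 (31 of 45, or 68.9%, on the lower side), and with poly-A scaling it lay at -0.00 relative to all genes. The collagens and both sperm lists kept their direction relative to all genes under each scaling tried. With poly-A scaling their medians relative to all genes were -0.12 for collagens and -0.26 for major sperm proteins. That of the list of small sperm families and spe genes was -0.19.

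**Figure D4:**
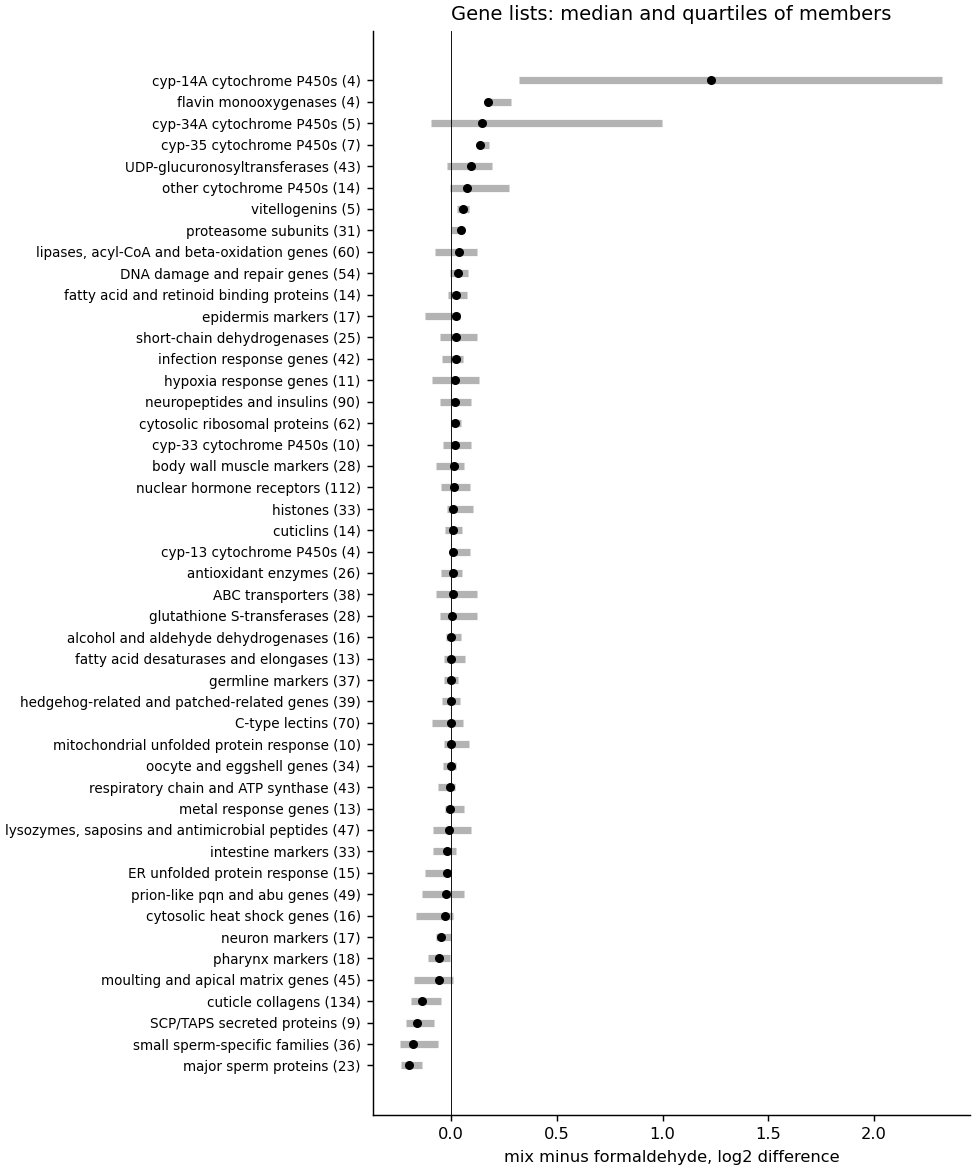
Median (point) and quartiles (bar) of the difference between mix and formaldehyde (log2, horizontal axis) for the members past the level filter of each of 47 gene lists, with their number in brackets. The cyp-14A list, with 4 members, stands at 1.23 at the top. Its median is 0.43 with the filter on the 4 arrays other than the mix, where cyp-14A3 drops out. The 2 sperm lists, the SCP/TAPS proteins and the collagens lie at the bottom, between -0.20 and -0.14.

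Of the 47 lists, 8 had a median at least 0.1 away from that of all genes: cyp-14A, cyp-34A, cyp-35, flavin monooxygenases, SCP/TAPS secreted proteins, cuticle collagens and the 2 sperm lists. The 8 hold as few as 4 members past the filter. The cyp-14A median fell from 1.23 to 0.43 with the filter on the 4 arrays other than the mix, where cyp-14A3 drops out. With no level filter 6 lists lay at that distance, and the medians of the cyp-34A and SCP/TAPS lists were 0. The medians of stress response lists lay near 0, although some of these lists leaned to a side. By any amount, 11 of 15 ER unfolded protein response genes (73.3%) were lower and 3 higher. Of 16 cytosolic heat shock genes, 11 (68.8%) were lower and 5 higher. Among DNA damage and repair genes, 36 of 54 (66.7%) were higher and 15 lower. For all genes the shares were 43.6% lower and 49.6% higher. The 16 cytosolic heat shock genes had a median of -0.03, with hsp-17 at 1799 after formaldehyde and 1488 in the mix (-0.27) and hsp-70 at 4645 and 4061 (-0.19). The ER unfolded protein response had -0.02, with the chaperone gene hsp-4 at 1905 and 1582 (-0.27). Antioxidant enzymes had a median of 0.01, hypoxia response genes 0.02, DNA damage and repair genes 0.03 and the mitochondrial unfolded protein response 0.00, and fmo-2 was the 1 member of these lists past 1.5-fold. Among metal response genes, with a median of -0.01, the metallothionein gene mtl-1 had 1840 in control, 2049 with benzene, 1974 with toluene, 611 with formaldehyde and 886 in the mix (0.53).

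The medians of defence, housekeeping and tissue lists were also close to 0, although some of these lists leaned to a side. C-type lectins had a median of 0.00 over 70 genes, lysozymes, saposins and antimicrobial peptides -0.01 over 47, ribosomal proteins 0.02 over 62 and proteasome subunits 0.04 over 31. By any amount, 46 of 62 ribosomal protein genes (74.2%) were higher and 15 lower. Of 31 proteasome genes, 21 (67.7%) were higher and 6 lower, where 49.6% of all genes were higher. Markers of whole-animal tissues were present on both arrays. Their medians were -0.02 for intestine, 0.01 for body wall muscle, -0.06 for pharynx, -0.05 for neurons and 0.02 for epidermis. By any amount, 13 of 17 neuron markers (76.5%) were lower and 1 higher, and 13 of 18 pharynx markers (72.2%) were lower and 4 higher. The share lower was 60.6% for intestine, 42.9% for muscle and 47.1% for epidermis, against 43.6% of all genes. The summed intensity of the intestine markers was 75392 after formaldehyde and 71725 in the mix, and that of the muscle markers 86221 and 86847.

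The difference between mix and formaldehyde was then set beside benzene minus control and toluene minus control, which share no array with it. They show how far genes that differed from control after a solvent alone also differed when both solvents were added to formaldehyde. Both subtract the same control array, so the values for benzene and toluene are not separate measurements. The part of the control array, and of the salt medium with no food, in these values was not tested. Across the 10271 genes, which are not independent replicates, the correlation was weak and negative: r was -0.13 (rho -0.11) with benzene and -0.12 (rho -0.10) with toluene. Of the 123 genes 2-fold higher after benzene than in control (1.2% of genes), 94 were lower in the mix than after formaldehyde and 29 were higher. Their median was -0.13, against 0 for all genes, of which 43.6% were lower. The set holds 23 major sperm protein genes and 11 collagens. Of the 79 genes outside the sperm and collagen lists, 51 were lower, with a median of -0.08. At 1.5-fold the set had 357 genes (3.48%), of which 238 were lower (median -0.08). Outside the sperm and collagen lists, 163 of 279 were lower, with a median of -0.03. Of the 123, fmo-2 was the 1 gene 1.5-fold higher in the mix.

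For toluene, 11 genes were 2-fold higher than control (0.107%), of which 7 were lower and 4 higher in the mix than after formaldehyde, with a median of -0.07. The 7 of these outside the sperm and collagen lists lay the other way, with 3 lower and a median of 0.19. At 1.5-fold it was 161 genes (1.57%), of which 128 were lower and 33 higher, with a median of -0.14, where 43.6% of all genes were lower. Of the 103 of the 161 outside the sperm and collagen lists, 71 were lower, with a median of -0.08. The medians of genes lower after a solvent alone lay around 0: -0.01 for the 18 genes 2-fold lower after benzene (0.175%) and 0.01 for the 10 lower after toluene (0.0974%). C30E1.9 was among the 18, at 0.92. Of the 94 genes 1.5-fold lower after benzene, 53 were higher and 39 lower in the mix than after formaldehyde (median 0.01). Of the 81 after toluene, 48 were higher and 29 lower (median 0.04). Among all genes 49.6% were higher and 43.6% lower. In turn, cyp-14A3 stood at 0.33 after benzene and 0.45 after toluene over control, cyp-14A2 at 0.17 and 0.12, cyp-34A10 at 0.09 and 0.12, and ugt-63 at 0.39 and -0.16. These 4 genes were picked for their differences between mix and formaldehyde, from 1.44 to 3.20, so the gap to the values for each solvent alone is set in part by that choice.

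**Figure D5:**
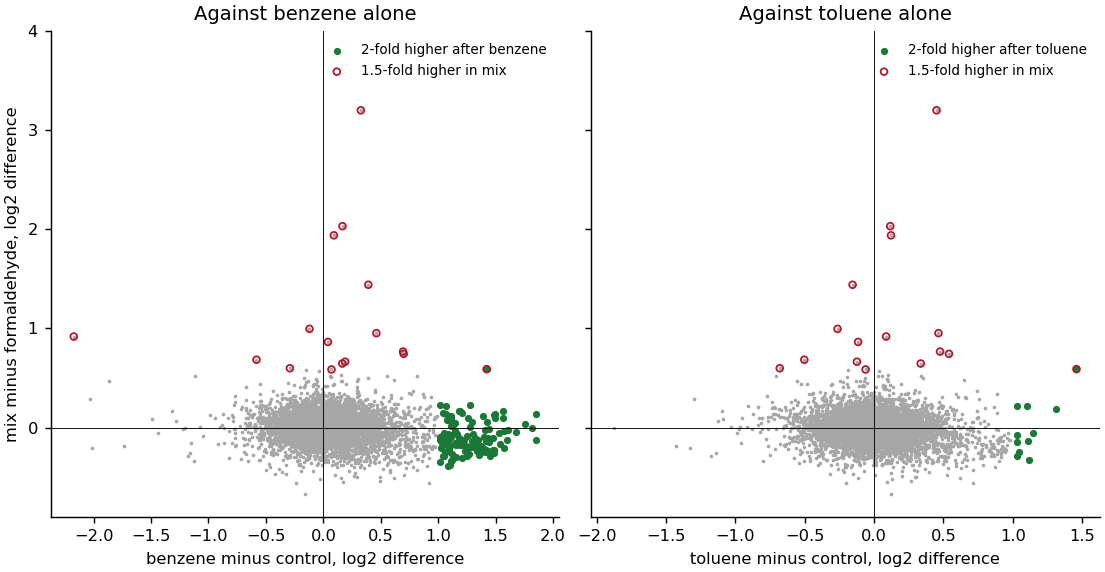
Difference between mix and formaldehyde (log2, vertical axis) against benzene minus control (left) and toluene minus control (right), each log2 on the horizontal axis, with 1 point for each of 10271 genes. Genes 2-fold higher after the solvent alone are green. For benzene they lie mostly below 0 on the vertical axis, and of the 11 for toluene 7 lie below 0 and 4 above. Most genes 1.5-fold higher in the mix (red circles) lie within 2-fold of control on the horizontal axis.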

How the data were processed

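Each of 5 arrays has 1 deposited intensity for each of 22625 probe sets, linear in scale (9.15 to 22222). Per the submitters' processing notes, RMA, MAS5 and Affymetrix Expression Console 1.1 were used; which of them gave these values, and the normalization between arrays, is not stated there. The platform annotation names 1 gene for 20766 probe sets, and 20701 of these matched the RefSeq gene table by Entrez identifier. Another 887 named several genes, 895 none and 77 were controls, and none of these entered gene counts. Each of 17118 genes took its probe set of highest mean over the 5 arrays, on log2(value + 16), and 10271 genes whose mean level reached the 40th percentile (6.05) were compared. Probe sets marked s or x can bind several transcripts.

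With 1 array per group, differences of 2-fold and 1.5-fold are fixed rules of size. Named were the 20 highest and 20 lowest genes, all 2-fold genes, up to 4 genes furthest from 0 per list, and all cyp-14A and cyp-34A genes; other UDP-glucuronosyltransferases and adh-5 were named after values were seen. The members and the 47 lists were chosen with earlier results of these data known. The steps were tested on simulated data. Python 3.11.15, pandas 2.3.3 and NumPy 2.4.6 were used. The closing section gives the effect of 12 other settings of filter, scaling, probe set and pseudocount.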

Additional observations from a re-analysis of the deposited data

Results flagged for a closer look

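The poly-A spikes, which are outside the genes compared, were 0.62 higher on the log2 scale in the mix than in the control array on average over 24 probe sets. The mean log2 intensity of these spikes was 8.68 in control, 8.23 with benzene, 8.55 with toluene, 8.55 with formaldehyde and 9.30 in the mix, so the mix stands highest of the 5. Its part in the differences was not tested.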

How the results depend on the processing

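Under 12 other settings, 1 of them (a filter on the 4 arrays other than the mix) chosen after seeing the data, the genes 2-fold higher in the mix numbered 0 with a filter at the 60th percentile, which leaves out all 4 dim genes, 2 with the filter on the 4 arrays other than the mix, which leaves out cyp-14A3 and ugt-63, 7 with a pseudocount of 1, and under the other settings between 3 and 5. With poly-A scaling 3 of the 4 genes stayed 2-fold higher (cyp-14A3 at 2.53, cyp-14A2 at 1.36 and cyp-34A10 at 1.28), ugt-63 stood at 0.77, and 114 genes were 2-fold lower. Genes 1.5-fold higher numbered 8 with the 60th percentile filter, 4 with poly-A scaling and 10 with hybridization spike scaling, and genes 1.5-fold lower numbered 8189 with poly-A scaling, 12 with hybridization spike scaling and 5 with a pseudocount of 1. The median absolute difference was 0.69 with poly-A scaling and 0.11 with hybridization spikes, and the correlation with benzene minus control was -0.23 with poly-A scaling. The median of the cyp-14A list was -0.0099 with the 60th percentile filter, since cyp-14A5 alone passed it, 0.43 with no filter and with the filter on the 4 other arrays, and 2.03 without marked probe sets. The median of the cyp-34A list was 1.00 with the 60th percentile filter and 0 with none, where the SCP/TAPS median was also 0, and between 6 (no filter, or no marked probe sets) and 11 (poly-A scaling) lists lay at least 0.1 from all genes. Of 4132 values of single genes and lists, 3790 moved by less than 1.5-fold and 341 by more, 7 of these outside poly-A scaling. Another 1, the cyp-14A median given above, moved by more and changed sign. Most differences are themselves below 1.5-fold, so the 3790 can hold changes of sign. The median of the major sperm proteins (-0.20) was 0.25 without marked probe sets, where msp-32 alone is left. That of the UDP-glucuronosyltransferases ran from -0.02 to 0.10 outside poly-A scaling. No paired analysis was possible because each group has 1 array, and no replicate could be left out. Dim genes limit what can be said: in 4 groups of genes by level, from dim to bright, there were 5, 8, 3 and 0 of the genes 1.5-fold higher.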

Other observations

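Genes of peroxisomes, which shorten fatty acids and make the ascaroside pheromones of C. elegans, were mostly on the higher side in the mix. This list was chosen after values were seen, so its count is a description. Of 24 genes past the filter, 19 were higher, 3 lower and 0 past 1.5-fold, with a median of 0.15, against 49.6% higher among all genes. The acyl-CoA oxidase genes acox-3 (463 after formaldehyde and 672 in the mix, 0.52), acox-1.1 (208 and 299, 0.49) and acox-1.6 (400 and 564, 0.48) stood furthest out, followed by lonp-2, a peroxisomal protease gene (162 and 230, 0.47), and daf-22, a thiolase gene (892 and 1138, 0.35). For acox-3, acox-1.1 and acox-1.6 the mix was the highest of the 5 arrays, which their choice as furthest above formaldehyde favours. acox-1.5 (0.01) and ctl-2, a catalase gene (0.01), stood near 0.

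One gene below the level filter was 2-fold higher in the mix: H25K10.4 had 33.6 in control, 40.5 with benzene, 40.5 with toluene, 35.6 with formaldehyde and 97.1 in the mix (1.13), on a probe set marked x. Among probe sets with no single gene named, 1 was 2-fold apart, with 237 in control, 300 with benzene, 429 with toluene, 66.7 with formaldehyde and 163 in the mix (1.11).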
